A study of Mus musculus with 12 samples.

Results

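Of 63309 accessible regions of 500 bp measured in thymic invariant natural killer T (iNKT) cells, 329 (0.520%) were closed, or much less open, only in the iNKT2 subset of C57BL/6 mice. They were chosen by their values in the 6 C57BL/6 libraries. The lowest of the 4 iNKT1 and iNKT17 values had to exceed the higher of the 2 iNKT2 values by at least 1.585 on the log2 scale, a 3-fold gap, and had to reach at least 2.32, which is 5 normalized insertions per kilobase and the level from which the study calls a region accessible. The levels and differences of these regions among the C57BL/6 libraries are therefore a description, tests of the subsets are given only within the Hivep3-/- libraries, which had no part in the choice, and comparisons between the genotypes are a description too.

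iNKT cells carry a T cell receptor that recognizes lipids presented by CD1d, and they leave their thymic precursor stage with effector functions already in place. iNKT1 cells resemble type 1 helper and cytotoxic cells and make interferon gamma, iNKT17 cells resemble type 17 helper cells and make IL-17, and iNKT2 cells make IL-4 and also include less mature cells. ATAC-seq uses a transposase to insert adapters into DNA that is not covered by nucleosomes, so that many insertions mark promoters, enhancers and other open elements. HIVEP3 is a large zinc finger protein that acts in T cells.

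The 12 libraries came from untreated mice of 8–9 weeks, wild-type C57BL/6 or Hivep3-/- on the C57BL/6 background, with 2 libraries each of iNKT1, iNKT2 and iNKT17 cells per genotype. Hivep3 was inactivated in the germline, so that every cell of these mice lacks it, and the wild-type mice were purchased. iNKT1 cells were sorted as CD122+ ICOS-, iNKT2 cells as CD122- ICOS+ Izumo1r+ CD138- and iNKT17 cells as CD122- ICOS+ Izumo1r- CD138+ cells from pooled thymi, combined for transposition and separated again by ICOS and CD138. The titles number single mice while the protocol describes pooled thymi, so p-values measure the spread between these libraries only. The values are log2 normalized insertions per kilobase, and the number of insertions behind them is unknown. The count of different values at or below a library's median, which is taken to grow with depth, was 219 and 159 in C57BL/6 iNKT2, 91 and 118 in Hivep3-/- iNKT2 and 73–491 over all libraries. At the start site of the iNKT17 marker Il17a the level was 5.85 and 5.71 in iNKT17 cells of C57BL/6 and Hivep3-/- mice and between −3.92 and −1.65 in the other 4 groups, and at that of Il23r it was 3.92 and 4.16 against −3.81 to −2.50. The mean over 5 iNKT1 markers was highest in iNKT1 cells (5.24 and 5.20, against 3.19–3.76 elsewhere), although Il2rb was higher in iNKT17 (7.39 and 7.28) than in iNKT1 cells (7.03 and 7.04). The mean over 5 iNKT2 markers differed less, with 4.94 and 4.80 in iNKT2 and 3.95–4.70 elsewhere. Il4 and Izumo1r were highest in iNKT2 cells of both genotypes, and Zbtb16, Gata3 and Il17rb were not. In C57BL/6 cells, Zbtb16 was 4.93 in iNKT2, 5.16 in iNKT1 and 5.19 in iNKT17. Gata3 was 5.55 in C57BL/6 iNKT2 and 5.58 in iNKT1 cells, and Il17rb 3.90 in C57BL/6 iNKT2 and 4.45 in iNKT17 cells. Of 5 double-positive thymocyte markers, 0 had a promoter region in the table, and of 5 B cell and 5 myeloid markers 2 each had one (Pax5, Ebf1, Spi1 and Cebpa), with mean levels of 2.90–3.95 and 3.89–4.33 over the 6 groups. Their part in the results was not tested. Of the 21 regions in or at the start of Hivep3, 0 had lower values in the Hivep3-/- than in the C57BL/6 libraries in all 3 subsets. The inactivated part of the gene is not given in the sources used here, so these regions do not check the genotype labels.

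Sequences are shown for members at 3 of the genes with the most members, because they carry matches to the Runt and bZIP motifs, which more members held than regions in general. They are the 6 of 21 candidate windows of 200 bases, outside exons and around the centre of a member, with a match to the Runt motif AACCACA, bound by RUNX factors, or the bZIP motif TGANTCA, bound by AP-1 factors such as FOS and JUN dimers. The plus strand of GRCm38.p6 (the same coordinates as mm10) from the RefSeq genome is printed 5′ to 3′, with Runt and bZIP matches on either strand in capitals.

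Gzmb promoter, chr14:56262295-56262494: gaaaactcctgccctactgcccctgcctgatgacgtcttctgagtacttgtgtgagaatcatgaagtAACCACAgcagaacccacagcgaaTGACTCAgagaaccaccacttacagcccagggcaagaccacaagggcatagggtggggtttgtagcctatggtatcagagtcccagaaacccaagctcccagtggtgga
Gzmb upstream, chr14:56266169-56266368: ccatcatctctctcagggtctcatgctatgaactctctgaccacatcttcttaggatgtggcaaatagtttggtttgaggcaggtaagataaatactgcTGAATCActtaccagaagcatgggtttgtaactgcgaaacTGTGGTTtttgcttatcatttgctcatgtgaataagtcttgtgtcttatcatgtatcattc
Irak2 intron, chr6:113655041-113655240: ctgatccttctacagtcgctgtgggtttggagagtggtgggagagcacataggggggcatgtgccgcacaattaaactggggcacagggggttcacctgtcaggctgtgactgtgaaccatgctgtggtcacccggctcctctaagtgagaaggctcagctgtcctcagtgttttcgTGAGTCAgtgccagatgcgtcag
Irak2 intron, second member, chr6:113658244-113658443: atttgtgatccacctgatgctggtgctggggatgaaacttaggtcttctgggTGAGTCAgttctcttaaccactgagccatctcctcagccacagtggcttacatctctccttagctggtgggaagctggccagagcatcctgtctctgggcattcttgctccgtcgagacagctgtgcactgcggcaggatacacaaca
Synj2 intron, chr17:6001937-6002136: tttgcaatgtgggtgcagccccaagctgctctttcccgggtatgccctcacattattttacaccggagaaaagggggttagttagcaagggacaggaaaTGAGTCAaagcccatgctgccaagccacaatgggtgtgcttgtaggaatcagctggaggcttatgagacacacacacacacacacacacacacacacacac
Synj2 intron, second member, chr17:6015104-6015303: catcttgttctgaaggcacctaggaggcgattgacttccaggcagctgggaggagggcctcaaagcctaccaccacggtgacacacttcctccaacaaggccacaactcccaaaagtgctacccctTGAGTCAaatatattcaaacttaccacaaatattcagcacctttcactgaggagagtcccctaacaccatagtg

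Both Gzmb windows hold 1 Runt and 1 bZIP match. Counted from 1 at the left end, they begin at 68 and 92 in the promoter window, whose gene lies on the minus strand, and in the upstream window the bZIP match begins at 100 and the Runt match, on the minus strand, at 140. The other four windows hold a bZIP match each, beginning at 178 and 53 for Irak2 and at 100 and 127 for Synj2.

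The members were more open in iNKT1 and iNKT17 than in iNKT2 cells of both genotypes. The median over members of the group mean was 3.61 (12.2 insertions per kilobase) in C57BL/6 iNKT1, 0.90 (1.87) in C57BL/6 iNKT2 and 4.03 (16.3) in C57BL/6 iNKT17 cells. In Hivep3-/- cells it was 3.86 (14.6), 1.27 (2.42) and 4.20 (18.4), against 3.89–3.90 in every group over all regions. As deposited, all 12 libraries had a median of 3.90 and a highest value of 9.95 over all regions. An overall difference in openness between groups therefore cannot be seen in these values. The label closed held for 280 members, whose C57BL/6 iNKT2 mean was below 5 insertions per kilobase. The other 49 were at or above it in iNKT2 cells and are lower there rather than closed. In bulk libraries, fewer cells with an open region and fewer insertions per cell cannot be told apart.

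**Figure D1:**
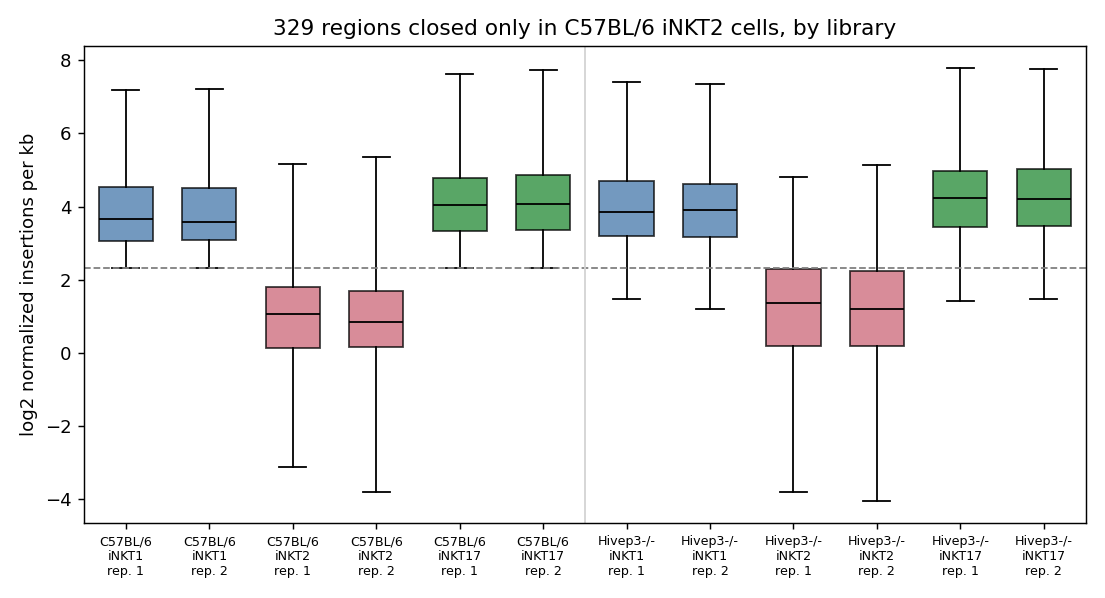
Values of the 329 members in each of the 12 libraries (log2 normalized insertions per kilobase). Boxes span the quartiles with the median as a line, whiskers reach the lowest and highest member, and the dashed line is the accessible level of 2.32. The C57BL/6 libraries were used to choose the members. In the Hivep3-/- libraries, the median member was at 1.38 and 1.20 in the iNKT2 libraries and between 3.86 and 4.24 in the other four.

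The gap between the lowest iNKT1 or iNKT17 value and the higher iNKT2 value had a median of 2.09 (4.25-fold) and a highest value of 6.18. It was at least 3 in 47 and at least 4 in 10 members. Just inside the threshold lay regions nearest to Mdfic, Tmem245 and Pard3, with gaps of 1.585, 1.589 and 1.590. Just outside lay regions nearest to Chst11, Jmjd1c and Slc30a7, with 1.583, 1.583 and 1.577. The means of iNKT1 and iNKT17 cells were within 3-fold of each other in 289 members in C57BL/6 and in 287 in Hivep3-/- cells, with the iNKT17 mean the higher one in 208 and 195 members. In Hivep3-/- cells, both iNKT17 values lay above both iNKT1 values in 164 members (49.8%, against 35.3% of all regions) and below them in 110 (33.4%, against 38.5%).

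Of the 5 members with the widest gaps, 4 lay more than 20 kb from the nearest protein-coding start site. The widest, chr8:85618738-85619237, lies between genes and 63.6 kb from the start of Dnaja2, which encodes a co-chaperone of HSP70. Its C57BL/6 values were 5.68 and 5.84 in the iNKT1, −1.22 and −0.55 in the iNKT2 and 5.71 and 5.64 in the iNKT17 libraries. In Hivep3-/- cells they were 6.16 and 6.28 in the iNKT1, 0.20 and −3.06 in the iNKT2 and 6.02 and 6.25 in the iNKT17 libraries. All 8 iNKT1 and iNKT17 values lay between 5.64 and 6.28, and the 4 iNKT2 values were at 0.20 or below. The second, chr6:129743563-129744062, lies 3.33 kb from the start of Klri2, a lectin-like receptor gene of the natural killer gene complex. It had 3.98 and 3.43 in the iNKT1, −3.12 and −2.69 in the iNKT2 and 3.53 and 3.41 in the iNKT17 libraries of C57BL/6 and 4.61 and 4.56 in the iNKT1, −0.88 and −0.78 in the iNKT2 and 3.62 and 3.32 in the iNKT17 libraries of Hivep3-/- mice. The groups did not overlap in either genotype, and 49.4% of its bases are masked as repeats in the RefSeq genome. The third, chr5:38932329-38932828, lies 55.8 kb from Clnk, an adaptor of immune receptor signalling, with 3.76 and 3.70 in the iNKT1, −2.43 and −1.38 in the iNKT2 and 3.97 and 4.53 in the iNKT17 libraries of Hivep3-/- mice. The fourth, chr9:53429878-53430377, is in an intron of 4930550C14Rik with Atm, the DNA damage kinase, as the nearest start site at 23.5 kb. The fifth, chr1:143465254-143465753, is 175 kb from any protein-coding start site and belongs to a pair of members in 1.32 kb. Within the Hivep3-/- libraries, iNKT2 differed by −7.65 (standard error 0.80, adjusted p = 8.43e-05) against iNKT1 and −7.57 (standard error 0.80, adjusted p = 0.000116) against iNKT17 at the Dnaja2 member and by −5.42 (standard error 0.26, adjusted p = 3.95e-06) against iNKT1 and −4.30 (standard error 0.26, adjusted p = 1.08e-05) against iNKT17 at the Klri2 member, in limma fits over all regions. Klri2 was not called against iNKT17 when 5 insertions were added to every linear value (difference −1.53), and fold changes against values near 0 depend on that constant.

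Of the 20 genes in a list of iNKT1 and cytotoxic effectors, 3 had a member (Gzmb, Klrk1 and Prf1), with 5 of the list's 208 regions being members (2.40%, against 0.520% of all regions). All 5 were lower in Hivep3-/- iNKT2 than in both other Hivep3-/- subsets, as were 77.8% of all members and 1335 regions of the whole table (2.11%). Gzmb encodes granzyme B, a protease that enters target cells and starts their death. All 3 regions in a stretch of 4.95 kb around its start site were members. At its promoter (chr14:56262145-56262644, 0.134 kb from the start, overlapping the first exon) the C57BL/6 values were 6.61 and 6.57 in the iNKT1, 2.92 and 2.19 in the iNKT2 and 5.75 and 5.85 in the iNKT17 libraries. The Hivep3-/- values were 6.58 and 6.57 in the iNKT1, 1.20 and 2.28 in the iNKT2 and 5.81 and 5.69 in the iNKT17 libraries. The promoter was high in iNKT17 as well as iNKT1 cells, and the iNKT2 values of either genotype lay below all of them. Hivep3-/- iNKT2 differed by −4.84 (standard error 0.29, adjusted p = 6.84e-06) against iNKT1 and −4.01 (standard error 0.29, adjusted p = 1.99e-05) against iNKT17 (limma). The member next to it in the same promoter, chr14:56261572-56262071, had 4.67 and 4.76 in the iNKT1, −0.88 and −0.59 in the iNKT2 and 2.66 and 3.25 in the iNKT17 libraries of Hivep3-/- mice, and the one 4.01 kb upstream, chr14:56266019-56266518, had 3.68 and 3.72 in the iNKT1, −1.72 and −1.72 in the iNKT2 and 2.30 and 1.85 in the iNKT17 libraries. At these neighbours the iNKT17 values lay between those of iNKT2 and iNKT1 cells, and neither was called against iNKT17 with 5 added to the linear values (−1.19 and −0.80).

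Klrk1 encodes NKG2D, an activating receptor for stress-induced ligands on natural killer and cytotoxic T cells. Its promoter, chr6:129622479-129622978, 0.044 kb from the start site, had 4.71 and 4.54 in the iNKT1, −1.59 and −0.97 in the iNKT2 and 3.31 and 3.26 in the iNKT17 libraries of C57BL/6 mice and 4.29 and 4.22 in the iNKT1, −1.72 and −2.39 in the iNKT2 and 2.70 and 2.83 in the iNKT17 libraries of Hivep3-/- mice. It was open in both iNKT1 and iNKT17 cells of either genotype and had the widest gap of all 40 promoter members (4.24). Hivep3-/- iNKT2 differed by −6.31 (standard error 0.35, adjusted p = 5.58e-06) against iNKT1 and −4.82 (standard error 0.35, adjusted p = 2.12e-05) against iNKT17 (limma), and the second call was lost with 5 added (−1.17). Prf1 encodes perforin, which forms pores for granzymes. A member between genes 6.59 kb from its start (chr10:61306146-61306645) had 5.45 and 5.46 in the iNKT1, 1.96 and 2.30 in the iNKT2 and 4.32 and 4.33 in the iNKT17 libraries of C57BL/6 and 6.06 and 6.11 in the iNKT1, 3.33 and 3.49 in the iNKT2 and 5.09 and 5.35 in the iNKT17 libraries of Hivep3-/- mice. Here the iNKT2 values were below those of iNKT1 and iNKT17 cells but reached the accessible level in Hivep3-/- mice. The differences were −2.68 (standard error 0.14, adjusted p = 5.06e-06) against iNKT1 and −1.81 (standard error 0.14, adjusted p = 3.08e-05) against iNKT17 (limma), and the latter was not called with 5 added (−1.43).

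Irak2 held the densest group of members. IRAK2 is a kinase-like adaptor downstream of the IL-1, IL-18 and Toll-like receptors. All 5 regions in a stretch of 9.6 kb (chr6:113648994-113658593) were members, as were 3 of 4 in a second stretch of 7.63 kb (chr6:113672910-113680537) whose nearest start site is that of Tatdn2. All 8 lie within the Irak2 gene, which holds 17 regions in all. The most open of them, chr6:113654891-113655390, had 7.18 and 7.22 in the iNKT1, 5.16 and 5.37 in the iNKT2 and 7.60 and 7.67 in the iNKT17 libraries of C57BL/6 mice and 7.41 and 7.34 in the iNKT1, 4.67 and 4.42 in the iNKT2 and 7.80 and 7.76 in the iNKT17 libraries of Hivep3-/- mice. It is 1 of the members that stayed above the accessible level in iNKT2 cells. The differences within Hivep3-/- cells were −2.83 (standard error 0.10, adjusted p = 2.59e-06) against iNKT1 and −3.23 (standard error 0.10, adjusted p = 2.73e-06) against iNKT17 (limma). The first of the stretch, chr6:113648994-113649493, was −1.72 and −1.38 in Hivep3-/- iNKT2 cells and 3.95–4.56 in the other four Hivep3-/- libraries. All 5 members nearest to Irak2 were called lower in Hivep3-/- iNKT2 cells against both other subsets, with differences of −2.72 to −5.49 against iNKT1 and −3.05 to −5.83 against iNKT17. With 5 added, 3 of these 10 calls were lost (−1.24 to −1.50). Il1r1, the receptor for IL-1 and a gene of the iNKT17 list, had an intronic member 16.9 kb from its start (chr1:40283290-40283789), with 0.20 and 0.66 in Hivep3-/- iNKT2, 3.39 and 3.06 in iNKT1 and 4.28 and 4.42 in iNKT17 libraries, and its call against iNKT1 was lost with 5 added (−1.18).

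Of the 23 residency and cytokine response genes, 4 had a member (Ahr, Cxcr6, Rgs1 and Runx3). Members were 8 of the list's 348 regions (2.30%, against 0.520% of all regions). All 8 were lower in Hivep3-/- iNKT2 than in both other subsets, as were 77.8% of all members and 2.11% of all regions. Rgs1, which shortens signalling from chemokine receptors and marks tissue-resident T cells, had 4. A pair lies in the gene and a pair 57.3–59.2 kb upstream. The highest of the upstream pair, chr1:144308184-144308683, had 5.50 and 5.51 in the iNKT1, 2.39 and 1.79 in the iNKT2 and 5.54 and 5.65 in the iNKT17 libraries of C57BL/6 mice and 5.44 and 5.35 in the iNKT1, 1.38 and 0.55 in the iNKT2 and 5.47 and 5.61 in the iNKT17 libraries of Hivep3-/- mice. iNKT1 and iNKT17 cells had almost the same level there and iNKT2 cells a low one. The differences were −4.43 (standard error 0.26, adjusted p = 6.1e-06) against iNKT1 and −4.58 (standard error 0.26, adjusted p = 8.25e-06) against iNKT17 (limma). In the pair within the gene (chr1:144244167-144244666 and chr1:144244934-144245433), iNKT1 cells were higher than iNKT17 cells, with Hivep3-/- values of 5.36 and 5.46 against 4.28 and 4.01 in the first. The call of the second against iNKT17 (−1.83) was lost without Hivep3-/- iNKT2 replicate 2 (−1.32), and with 5 added the 2 calls against iNKT17 in the gene and both calls of the other upstream member were lost.

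Runx3 encodes a Runt factor of cytotoxic and resident T cells. Its 2 members lie in introns, 7.38 and 16.8 kb from a start site. The one farther in, chr4:135169028-135169527, had 5.31 and 5.29 in the iNKT1, 1.66 and 1.60 in the iNKT2 and 4.76 and 4.87 in the iNKT17 libraries of C57BL/6 mice and 5.88 and 5.92 in the iNKT1, 2.39 and 2.85 in the iNKT2 and 5.22 and 5.28 in the iNKT17 libraries of Hivep3-/- mice. The other, chr4:135159632-135160131, was 3.40 and 3.70 in Hivep3-/- iNKT2 and 5.88–6.62 in the other Hivep3-/- libraries. All 4 values stayed above the accessible level in Hivep3-/- iNKT2 cells. At the first, iNKT2 differed by −3.28 (standard error 0.18, adjusted p = 4.95e-06) against iNKT1 and −2.63 (standard error 0.18, adjusted p = 1.42e-05) against iNKT17 (limma). The member nearest to Cxcr6, the receptor that keeps cells near CXCL16, lies in an intron of Fyco1, 11.6 kb from the start of Cxcr6 (chr9:123817800-123818299), with 1.79 and 1.34 in Hivep3-/- iNKT2 and 3.52–3.66 in the other Hivep3-/- libraries. It is near the threshold of the choice (gap 1.59), and both its calls were lost with 5 added (−1.07 and −1.11). The member nearest to Ahr, a ligand-activated factor of type 17 cells, lies 28.0 kb away (chr12:35562745-35563244). Hivep3-/- iNKT2 replicate 1 was there at the lowest value of its library (−3.79) and replicate 2 at −0.41, so the size of its difference is not given.

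The iNKT17 list of 18 genes had 4 with a member (Ccr6, Il1r1, Serpinb1a and Tmem176a). These members were 4 of the list's 178 regions (2.25%, against 0.520% of all regions). Of the 4, 3 were lower in Hivep3-/- iNKT2 than in both other subsets, beside 77.8% of all members and 2.11% of all regions. In Ccr6, the receptor for CCL20, the member overlaps a UTR exon 6.84 kb from the nearest start site (chr17:8251657-8252156). Its C57BL/6 values were 4.48 and 4.14 in the iNKT1, 2.26 and 2.00 in the iNKT2 and 4.81 and 4.71 in the iNKT17 libraries, and its Hivep3-/- values 4.56 and 4.21 in the iNKT1, 1.52 and 0.10 in the iNKT2 and 4.81 and 4.53 in the iNKT17 libraries. This region was open in both iNKT1 and iNKT17 cells, whereas the regions at the Ccr6 start site averaged −2.43 in C57BL/6 iNKT1 and 3.34 in C57BL/6 iNKT17 cells. In Tmem176a, a membrane protein gene of type 17 cells, the member also overlaps a UTR exon (chr6:48846729-48847228), with 2.45 and 2.62 in the iNKT1, −0.61 and 0.51 in the iNKT2 and 5.27 and 5.39 in the iNKT17 libraries of C57BL/6 and 2.77 and 2.90 in the iNKT1, −0.61 and −0.22 in the iNKT2 and 5.47 and 5.36 in the iNKT17 libraries of Hivep3-/- mice. It was graded, low in iNKT2, intermediate in iNKT1 and high in iNKT17 cells. The difference from iNKT1 (−3.25, limma) was lost with 5 added (−1.08). Serpinb1a, a protease inhibitor gene, had a member 17.7 kb away (chr13:32833196-32833695) that was called lower in Hivep3-/- iNKT2 against iNKT17 (−2.53) and not against iNKT1 (−1.25, standard error 0.28, adjusted p = 0.00553, limma), since that change was less than 3-fold.

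Of 16 AP-1 and related bZIP genes, Fos and Fosl2 had 3 members by nearest start site among 193 regions (1.55%, against 0.520% of all regions). Each was lower in Hivep3-/- iNKT2 than in both other subsets, as were 77.8% of all members and 2.11% of all regions. The Fos pair, 1 region over the UTR exon at its end (chr12:85477172-85477671) and the next one downstream (chr12:85477709-85478208), was among the most open of all members. The first had 6.44 and 6.63 in the iNKT1, 4.78 and 4.53 in the iNKT2 and 7.31 and 7.59 in the iNKT17 libraries of C57BL/6 and 6.72 and 6.81 in the iNKT1, 4.77 and 5.13 in the iNKT2 and 7.62 and 7.73 in the iNKT17 libraries of Hivep3-/- mice. All 4 iNKT2 values were above the accessible level, and both members were lower in iNKT2 rather than closed. The differences within Hivep3-/- cells were −1.82 (standard error 0.12, adjusted p = 1.09e-05) against iNKT1 and −2.72 (standard error 0.12, adjusted p = 4.11e-06) against iNKT17 (limma). Fosl2 had a member 21.8 kb away (chr5:32113726-32114225), with 3.85 and 3.88 in the iNKT1, 0.78 and 0.94 in the iNKT2 and 3.85 and 3.74 in the iNKT17 libraries of Hivep3-/- mice, and its calls were lost with 5 added (−1.52 and −1.47). Of 22 genes of iNKT2 and early cells, Bcl11b, a factor of T cell commitment, had a member by nearest start site. That member was 1 of the list's 372 regions (0.269%, against 0.520% of all regions). This intronic region (chr12:107947050-107947549) had 3.20 and 3.35 in the iNKT1, 1.93 and 2.23 in the iNKT2 and 4.32 and 4.05 in the iNKT17 libraries of Hivep3-/- mice and was called lower in iNKT2 against iNKT17 (−2.10, or −1.33 and not called with 5 added) but not against iNKT1 (−1.20, adjusted p = 0.00213, limma). Members also lay within Atf3, of the bZIP list, and Ikzf2, of the iNKT2 list, but were not assigned to these genes by nearest start site. The lists were drawn up with earlier results of these data known, and no test over a list was made.

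**Figure D2:**
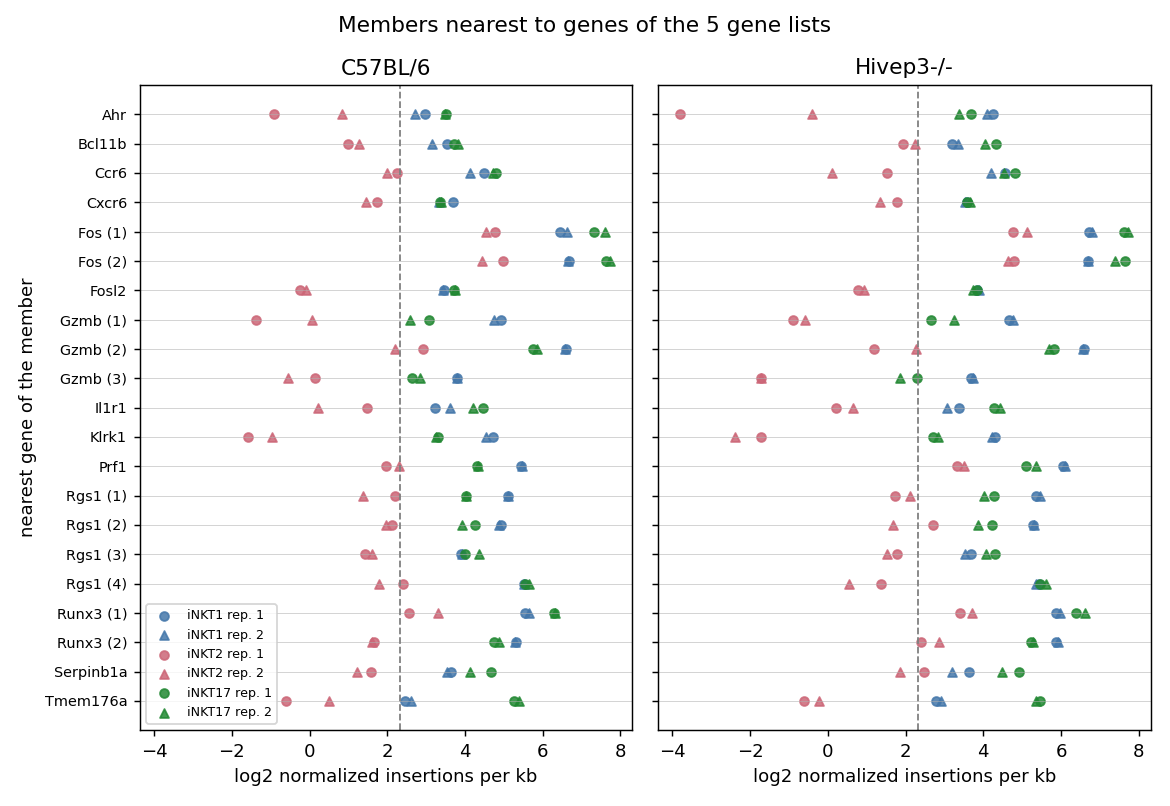
All 21 members nearest to a gene of the 5 gene lists in C57BL/6 (left) and Hivep3-/- (right) libraries, as log2 normalized insertions per kilobase. Colours mark subsets, circles and triangles the 2 replicates, numbers in brackets the order along the chromosome, and the dashed line the accessible level of 2.32. In each Hivep3-/- row the iNKT2 points lie to the left of the other four points.

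The remaining genes with the most members were Synj2, an inositol phosphatase gene, and Srgap3, which encodes a GTPase-activating protein for RAC, with 3 intronic members each. At chr17:6001787-6002286 in Synj2 the Hivep3-/- values were 4.82 and 4.75 in the iNKT1, 1.93 and 1.65 in the iNKT2 and 5.52 and 5.68 in the iNKT17 libraries. At the other two Synj2 members Hivep3-/- iNKT2 was also lower, with differences of −2.45 and −4.06 against iNKT1 and −2.36 and −5.33 against iNKT17. Of these 4 calls 3 were lost with 5 added (−1.51 and −1.08 against iNKT1 and −1.02 against iNKT17). In Srgap3 the C57BL/6 iNKT1 and iNKT17 levels were modest (2.40–4.15), and 1 Hivep3-/- iNKT2 library was at its lowest value in 1 of the 3 members. All 6 Srgap3 calls within Hivep3-/- cells were lower in iNKT2, and 5 of them were lost with 5 added (−1.08 to −1.47). Nearest start sites within 100 kb assigned 297 members to 243 genes (1.70% of 14306 genes with a region). Of these genes 206 had 1 member, 23 had 2 and 14 had 3 or more. Besides the 5 above, the genes with 3 were Thbd, Ifngr1, Tatdn2, Gab3, Oacyl, Sipa1l1, Galnt2, Lrrn2 and Gcnt2, a list given with its values known. All 3 regions assigned to Thbd, the thrombomodulin gene, were members, as were all 3 assigned to Oacyl. Ifngr1 encodes a chain of the interferon gamma receptor. Genes with a member had a region open only in iNKT2 cells in 10 cases (4.12%, against 6.66% of all genes with a region).

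In the Hivep3-/- libraries the pattern that chose the members was present in most of them. In all 329 members the Hivep3-/- iNKT2 mean was below both the iNKT1 and the iNKT17 mean, and in 327 (99.4%) both iNKT2 values lay below all 4 others, against 16.6% of all regions. limma, fitted to the 6 Hivep3-/- libraries over all 63309 regions, called 270 members (82.1%) lower in iNKT2 than in iNKT1 with a 3-fold or larger difference and an adjusted p under 0.1, against 8.76% of all regions. It called 292 (88.8%) lower than in iNKT17, against 8.27%, and 256 (77.8%) lower than in both, against 2.11%. None was called higher (0 in either contrast), although 320 (97.3%) and 327 (99.4%) members had an unadjusted p under 0.05, all with a difference below 0, against 54.5% and 50.2% of all regions in either direction. The median difference was −2.70 (6.48-fold) from iNKT1 and −2.91 (7.50-fold) from iNKT17, against 0.02 and 0.04 over all regions. The libraries were deposited with a shared median, so values near 0 over all regions come with the normalization. Both contrasts share the 2 iNKT2 libraries. In the C57BL/6 libraries that chose the members, these medians were −2.65 and −2.87. Replicates differed by a median of 0.41 in Hivep3-/- iNKT2 and by 0.14–0.22 in the other Hivep3-/- groups.

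Of the other members, 14 were called lower only than iNKT1, 36 only than iNKT17 and 23 than neither. With 5 insertions added to every linear value, 117, 147 and 75 members were called against iNKT1, iNKT17 and both. At the lowest value of their library were 4 and 3 members in the Hivep3-/- iNKT2 replicates and 0 in any other library. The rule itself, applied to the Hivep3-/- columns, selected 481 regions (0.76% of the table). Of these, 205 were members, 62.3% of the members and 42.6% of the Hivep3-/- list. Of the members not selected, 107 missed the gap and 17 only the accessible level.

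**Figure D3:**
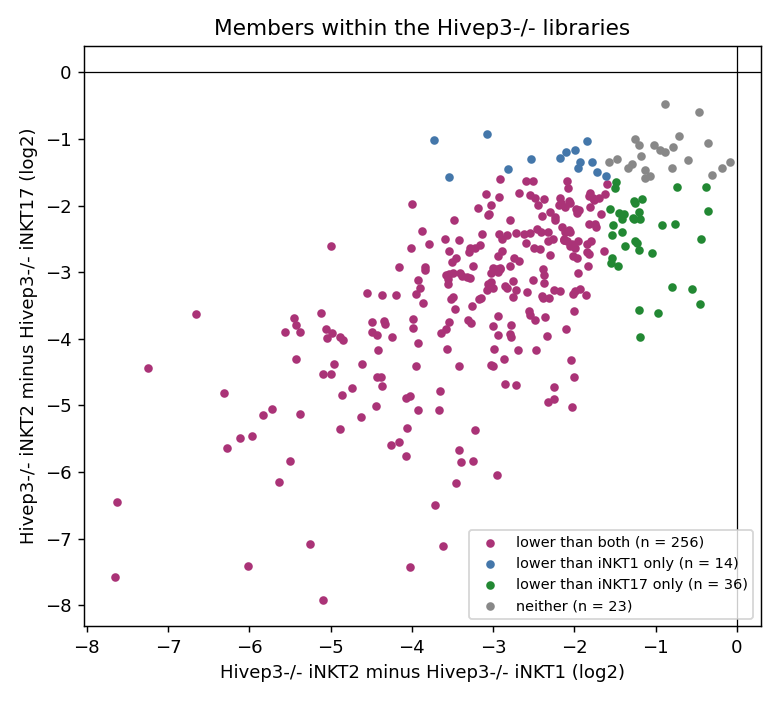
Difference of Hivep3-/- iNKT2 from Hivep3-/- iNKT1 (x axis) and from Hivep3-/- iNKT17 (y axis) for each of the 329 members, on the log2 scale, coloured by the calls of limma. Each of the 329 points lies below 0 on both axes, 256 are called against both subsets and 23, towards the upper right, against neither.

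The 3 members where Hivep3-/- iNKT2 came closest to the other subsets were intronic and 103, 114 and 37.0 kb from their nearest start site. At chr7:89235246-89235745 in Tmem135, the C57BL/6 values were 3.60 and 3.95 in the iNKT1 and 1.58 and 1.53 in the iNKT2 libraries, and the Hivep3-/- values were 3.00 and 3.19 in the iNKT1, 2.64 and 3.37 in the iNKT2 and 4.47 and 4.24 in the iNKT17 libraries. The Hivep3-/- iNKT2 and iNKT1 values overlapped, and their difference (−0.09) turned to 0.01 without iNKT1 replicate 2 and to 0.27 without iNKT2 replicate 1. At chr17:84352118-84352617 in Thada the Hivep3-/- values were 3.87 and 3.71 in the iNKT1, 3.52 and 3.68 in the iNKT2 and 5.07 and 4.99 in the iNKT17 libraries, and at chr13:95655249-95655748 in Iqgap2 they were 3.69 and 3.70 in the iNKT1, 3.40 and 3.39 in the iNKT2 and 4.82 and 5.04 in the iNKT17 libraries. At none of the 3 was iNKT2 called lower than iNKT1, with adjusted p = 0.807, 0.377 and 0.172 in limma, and all 3 had a lower mean than in iNKT17 (differences of −1.35, −1.43 and −1.54) without being called. The first was called against iNKT17 without Hivep3-/- iNKT2 replicate 2 (−1.71) and the third without Hivep3-/- iNKT17 replicate 1 (−1.65).

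Between the genotypes the members can only be described, because their C57BL/6 values chose them. The choice of low C57BL/6 iNKT2 values by itself favours higher iNKT2 values in the other genotype. The choice of high C57BL/6 iNKT1 and iNKT17 values by itself favours lower ones there. The counts below are therefore no test of the members. In iNKT2 cells the Hivep3-/- mean was higher in 19 members and lower in 11 by the thresholds above in a limma fit of all 12 libraries, beside 0.945% and 1.51% of all regions. The higher and lower members numbered 6 and 0 with 1 added to the linear values, 0 and 0 with 5 added, 9 and 0 among regions accessible in either group, and 24 and 20 without Hivep3-/- iNKT2 replicate 1. In iNKT1 cells 2 were higher and 0 lower (1.19% and 0.791% of all regions), and 4 passed with the libraries paired by number. In iNKT17 cells 0 passed in either direction (0.373% and 0.368%). The members with an unadjusted p under 0.05 in the 3 limma contrasts made up 27.1%, 49.8% and 13.4% in iNKT1, iNKT2 and iNKT17 cells, beside 19.1%, 25.2% and 16.7% of all regions. The median change was 0.14, 0.23 and 0.12, beside −0.02, 0.003 and −0.01 over all regions. The Hivep3-/- iNKT2 mean reached the accessible level in 74 members, 34 of which were below it in C57BL/6 iNKT2 cells, and 9 members went the other way.

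The 3 members past these thresholds that were furthest above C57BL/6 in Hivep3-/- iNKT2 cells were at chr1:129680546-129681045 in an intron of Thsd7b, at chr8:83628253-83628752 between genes, 19.9 kb from Dnajb1, and at chr15:78599726-78600225 in an intron of Cyth4. At the Thsd7b member the iNKT2 values were −1.06 and −1.72 in C57BL/6 and 2.25 and 2.12 in Hivep3-/- mice, with 2.72 and 2.59 in Hivep3-/- iNKT1 and 3.05 and 2.50 in iNKT17 cells. At the Cyth4 member they were 0.68 and 0.68 and 2.99 and 2.95, with 3.50 and 3.64 and 4.11 and 4.47 in the other Hivep3-/- subsets. Within Hivep3-/- cells, the differences of iNKT2 from iNKT1 and iNKT17 were −0.47 and −0.59 at the Thsd7b member and −0.60 and −1.32 at the Cyth4 member, and none of these 4, each less than 3-fold, was called. The Dnajb1 member had 1.13 and −0.78 in C57BL/6 and 2.64 and 2.65 in Hivep3-/- iNKT2 libraries and did not pass the thresholds without C57BL/6 iNKT2 replicate 2 (change of 1.52). None of the 3 passed with 5 added to the linear values (changes of 0.83, 0.83 and 0.96). The 19 higher members had a median of 0.26 in C57BL/6 and 2.24 in Hivep3-/- iNKT2 cells. Of them, 9 reached the accessible level and 7 were still lower than both other Hivep3-/- subsets.

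The 3 members past the thresholds that were furthest below C57BL/6 were at chr13:40943888-40944387 in an intron of Gcnt2, which encodes an enzyme of branched glycans, at chr6:118262822-118263321, 65.4 kb from Ret, and at chr9:70371538-70372037 in an intron of Myo1e. In the first 2, Hivep3-/- iNKT2 replicate 1 was at the lowest value of its library. At the Myo1e member the iNKT2 values were −0.04 and 0.17 in C57BL/6 and −2.43 and −1.72 in Hivep3-/- mice, all below the accessible level, and the Hivep3-/- iNKT1 values were 5.17 and 5.18. The 11 lower members had iNKT2 means under the accessible level with either genotype, and all 11 were called lower than both other Hivep3-/- subsets. None of these 3 passed with 1 added to the linear values, with changes of −0.95, −1.14 and −0.72. The Hivep3-/- iNKT2 libraries had fewer distinct values than the C57BL/6 ones, and what part depth has in these low values was not tested.

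**Figure D4:**
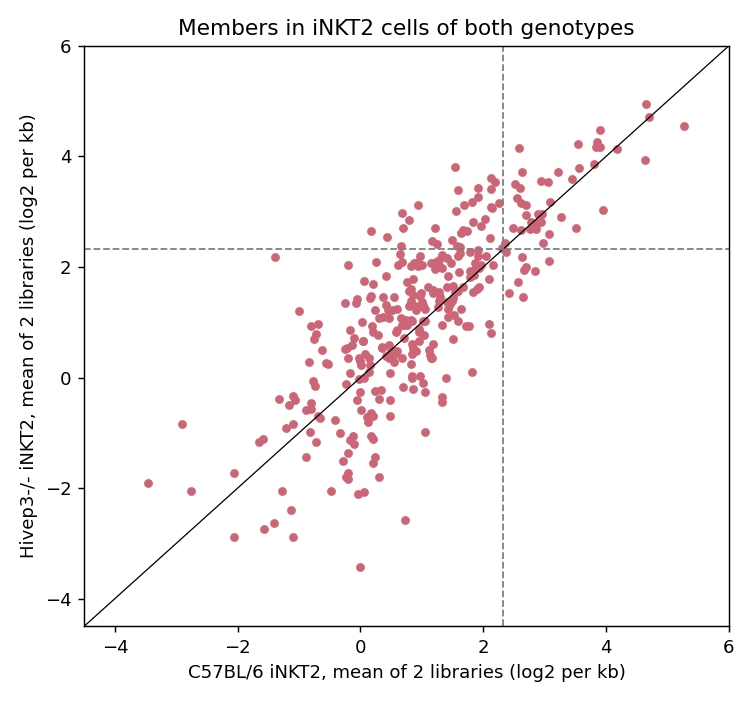
Mean of the 2 iNKT2 libraries of each genotype for the 329 members (log2 normalized insertions per kilobase). The solid line marks equal values and the dashed lines the accessible level of 2.32. The C57BL/6 values were used to choose the members. Above the horizontal line lie 74 members, 34 of them left of the vertical line, and 9 lie below the horizontal line and right of the vertical one.

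Most members lay outside promoters. Introns held 167 (50.8%, against 32.3% of all regions), stretches between genes 97 (29.5%, against 22.8%), exons 25 (7.60%, against 6.77%) and promoters, within 1000 bp of a start site of any annotated transcript, 40 (12.2%, against 38.1%). With 500 bp the promoter share was 8.21% (all regions 32.1%). Regions closed only in iNKT1 (1042) and only in iNKT17 (960), found by the same rule, had promoter shares of 14.6% and 14.6%, and the 1433 regions open only in iNKT2 12.4%. Lower in Hivep3-/- iNKT2 than in both other subsets were 30 of the 40 promoters (75%), 20 of 25 exonic (80%), 128 of 167 intronic (76.6%) and 78 of 97 intergenic members (80.4%). Over all regions of any class the share was 2.11%. It was not counted by class, so these classes cannot be compared against their own background. The promoters with the widest gaps after Klrk1 included those of Gzmc, a second granzyme of the same cluster on chromosome 14 (3.04), and Thbd (2.98), and a Stat4 promoter, of the factor downstream of IL-12, was a member close to the threshold (1.63); these promoters were picked with their values known.

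The median distance to a start site was 17.4 kb (7.88 kb over all regions and 17.6 kb over all regions outside promoters). The median GC content was 46.6%, against 50.0% over all regions and 47.6% outside promoters. Of the members, 4.56% were masked as repeats over at least 50% of their bases, against 2.94% of all regions. Outside promoters, these shares were 4.50% of members and 3.99% of all regions. Within 10 kb of another member lay 69 (21.0%), in 31 clusters, of which 5 held 3 or more. Chromosome 6, which carries Irak2, Klrk1, Klri2 and Srgap3, held most members (30, or 0.928% of its regions), and chromosome 16 fewest (1 of 1970, 0.0508%).

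The letters of the Runt motif, AACCACA, were found on either strand in 106 members (32.2%), against 17.4% of all regions, and in 33.6% of members outside promoters, against 21.9% of all regions outside promoters. At least 2 matches were present in 22 members (6.69%), against 2.05% of all regions. The bZIP motif TGANTCA, as in the Gzmb, Irak2 and Synj2 sequences above, was found in 23.4% (all regions 15.9%; outside promoters 25.6% against 19.4%). Runt and bZIP matches occurred together in 27 members. Of 11 other motifs, T-box AGGTGTGA, bound by T-bet, was found in 3.95% (2.91%), ETS CAGGAAGT in 10.9% (9.87%), NFAT TTTTCCA in 9.42% (10.1%), TCF ATCAAAGG in 1.52% (2.36%), and AGATAA, bound by GATA factors, in 21.6% (20.6%). Egr GCGTGGGCG was in 0 members (0.643% of all regions). STAT TTCNNNGAA was in 14.9% (13.4%), IRF GAAANNGAA in 15.8% (15.3%), NF-kB GGANTTTCC in 1.82% (2.45%), E-box CAGGTG in 31.0% (34.6%) and KLF CCACGCCC in 3.34% (4.95%). Outside promoters, T-box was found in 4.50% (3.49% of all regions there), ETS in 10.7% (12.0%), NFAT in 10.0% (11.1%) and TCF in 1.73% (2.95%). GATA was in 21.5% (25.0%), STAT in 14.5% (14.9%), IRF in 14.9% (17.2%) and NF-kB in 2.08% (2.60%). E-box was in 29.8% (34.9%), KLF in 2.42% (2.55%) and Egr in 0 members (0.232%). ETS, GATA, STAT and IRF were thus above the background over all members and below it outside promoters. The T-box and E-box letters shared bases in 3 members.

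Outside promoters, the Runt share was 25.5% in regions closed only in iNKT1, 22.2% in those closed only in iNKT17 and 20.1% in those open only in iNKT2. The bZIP shares were 25.8%, 18.2% and 21.0%, so that of the members (25.6%) was close to that of the regions closed only in iNKT1. A match is a run of letters and not a bound site, and these shares were not tested. Members with and without a Runt match had close medians within Hivep3-/- cells, −2.63 and −2.72 against iNKT1 and −2.89 and −2.91 against iNKT17.

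**Figure D5:**
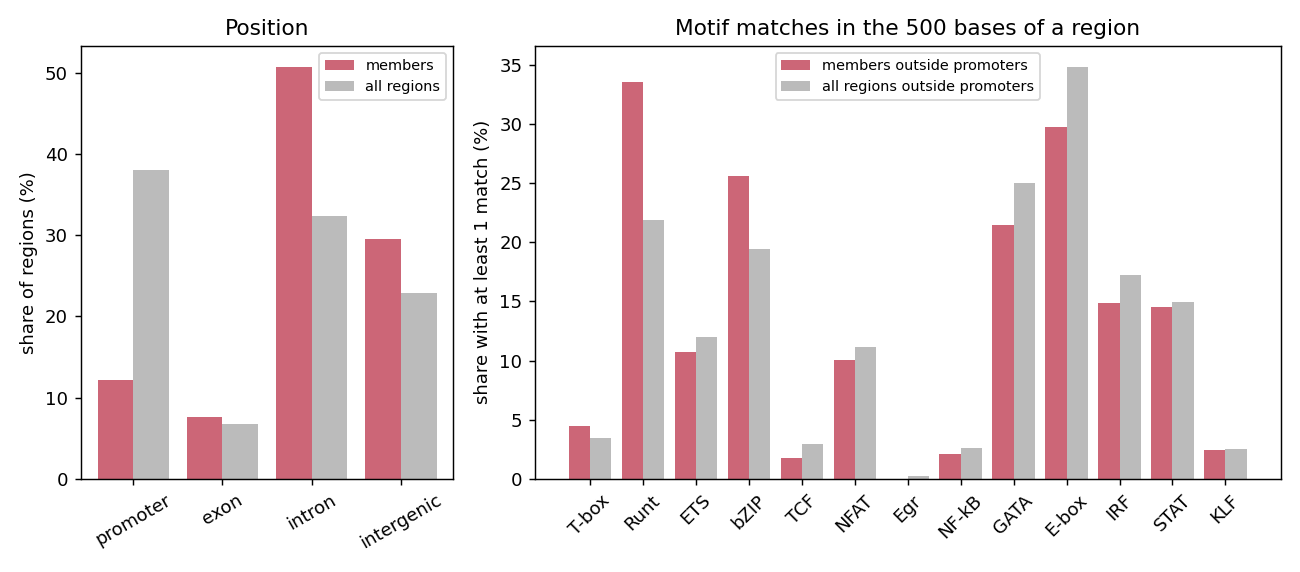
Left, share of the 329 members and of all 63309 regions that are promoter, exonic, intronic or intergenic. Right, share of the 289 members outside promoters and of all 39208 regions outside promoters with at least 1 match to each of 13 motifs. Introns held 50.8% of members and promoters 12.2%, and Runt and bZIP have the bars that stand furthest above those of all regions.

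The same counts were made for the sets closed only in another subset. In Hivep3-/- cells, 91.8% of the regions closed only in iNKT1 and 91.9% of those closed only in iNKT17 had both Hivep3-/- values of that subset under all 4 others, beside 22.8% and 20.2% of all regions, and 99.4% of the members did, beside 16.6%. The rule held again in the Hivep3-/- columns for 47.5% and 30.0% of them, and for 62.3% of the members. Over the whole table, the rule in the Hivep3-/- columns selected 1001 regions for iNKT1, 523 for iNKT17 and 481 for iNKT2. The C57BL/6 sets made up 49.5%, 55.1% and 42.6% of these, so the order of the sets depends on which list is the base. The difference between the sets was not tested, and the median gaps were alike (2.06, 2.12 and 2.09).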

How the data were processed

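The study performed Omni-ATAC-seq on sorted thymic iNKT subsets. Per the paper and the submitters' processing notes, the authors trimmed reads to 50 bp with Trimmomatic 0.39, mapped them to mm10 with the ENCODE ATAC-seq pipeline, merged the peaks of all replicates, outside the Y chromosome and the ENCODE blacklist, to regions of 500 bp with chromVAR, counted transposase insertions and normalized the counts with voom. The deposited values are log2 normalized insertions per kilobase, as the authors made them. All 12 columns were mapped to a library by name. Raw counts were not used here, so depth is unknown, no counting interval is given, and low values depend on the constant added before the logarithm.

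The members, gene lists and motifs were chosen with earlier results of these data known, and the lists were not tested. Subset contrasts were fitted with limma 3.58.1 in R 4.3.3 to the 6 Hivep3-/- libraries (3 residual and 5.87 prior degrees of freedom), and genotype contrasts to all 12 libraries (6 and 7.17), with 1 mean per group and moderated variances that follow a trend with the mean. All 63309 regions were tested without a filter on low values, so that all 329 members passed. Tests were two-sided with Benjamini-Hochberg adjustment over all regions, and a call needed a 3-fold or larger difference and an adjusted p under 0.1. An exact permutation test of 2 against 2 libraries cannot give a two-sided p below 0.333, so none was used. The fits were tested on simulated data.

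Libraries with 1 number and genotype were paired, from the mouse numbers in the titles, only in the replicate block. The main fits held no pairing. Differences between replicates correlated between the subsets of a genotype with r = 0.120–0.167 across regions, which is a description.

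Coordinates are 1-based on GRCm38.p6, which is mm10, with GENCODE vM21 genes. A gene is the nearest protein-coding start site within 100 kb of a region's centre, a promoter is within 1000 bp of any start site, and clusters join members within 10 kb. Motif letters were searched on both strands of the 500 bases. Some marker and motif results are not reported here. Regions named in the text are the 5 widest gaps, the 5 genes with most members, members nearest to a list gene, the 3 largest called rises and falls between genotypes in iNKT2 cells, the 3 on each side of the threshold and the 3 where Hivep3-/- iNKT2 was highest relative to the lower of the other subsets' means. Python 3.11.15, numpy 2.4.6, pandas 2.3.3, scipy 1.17.1, pysam 0.24.0 and matplotlib 3.10.9 were used. Alternatives were another filter, pseudocounts, fold threshold, variance model, replicate block, set of libraries, quantile normalization, gap and promoter distance.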

Additional observations from a re-analysis of the deposited data

How the results depend on the processing

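The number of members was 817 with a gap of at least 1 and 182 with a gap of at least 2. A pseudocount of 5 on the linear scale lowered the counts of members called lower in Hivep3-/- iNKT2 from 270, 292 and 256 (against iNKT1, iNKT17 and both) to 117, 147 and 75, and the median differences from −2.70 and −2.91 to −1.35 and −1.48. It compresses folds between low values by construction. Under the filter, a pseudocount of 1, a fold of 2, no variance trend, the fit over 12 libraries, the replicate block and leaving out a library, these counts stayed within 1.5 times, at 244–307, 277–324 and 223–305. The replicate block gave the same 270 and 292 members. The number of members with groups that did not overlap was 327–328 under quantile normalization and without single libraries. The 12 deposited columns already shared a median of 3.90 and a highest value of 9.95 over all regions. Quantile normalization is therefore a small change to them and a weak check on the normalization.

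The median difference from iNKT1 was −2.74 to −2.57 and that from iNKT17 −2.86 to −2.80 without single libraries, and the latter was −2.79 after quantile normalization. Between genotypes, members called in iNKT1 cells numbered 2, with 19 at a fold of 2, 1 with a pseudocount of 5, 4 with the replicate block and 1–3 without single libraries, the 1 being without Hivep3-/- iNKT1 replicate 2. In iNKT2 cells they numbered 30, with 80 at a fold of 2, 9 with the filter on accessible regions, 6 with a pseudocount of 1 and 0 with a pseudocount of 5. The replicate block again gave 30, of which 25 were the same members, with 20 higher and 10 lower in place of 19 and 11. In iNKT17 cells they numbered 0, with 3 at a fold of 2 and 0–1 without single libraries, the 1 being without C57BL/6 iNKT17 replicate 2. Apart from the constructions named, the cause was not tested.

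The 40 members named for the Hivep3-/- subsets gave 80 tests. Over the alternatives, 763 values kept their direction and side of the thresholds, 31 lost a call, 30 of them with a pseudocount of 5, 2 gained one, and 2 turned direction. Both of the latter were the Tmem135 member (chr7:89235246-89235745) against iNKT1, which was not called (−0.09), with 0.01 without Hivep3-/- iNKT1 replicate 2 and 0.27 without Hivep3-/- iNKT2 replicate 1 in a range of −0.45 to 0.27 without single libraries. The replicate block changed none of these 80.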
